A study of Mus musculus with 9 samples.

Results

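The genes described here are 8 regulators of the G1 phase of the cell cycle in mouse liver, picked by name from the 28517 genes of the deposited expression table. They are the D-type cyclins Ccnd1, Ccnd2 and Ccnd3, the E-type cyclins Ccne1 and Ccne2, and the CDK inhibitors Cdkn1a, Cdkn1b and Cdkn2c. Each of the 8 symbols had a row in the table, and all 8 passed the low-count filter. The RNA came from livers of db/db mice, an obese and diabetic strain with a defective leptin receptor. For 12 weeks the mice were given FGF19ΔKLB, FGF19WT or PBS as vehicle, and each group holds 3 libraries, so every group shares the db/db background. FGF19 acts in the liver on FGFR4, for which β-klotho is the co-receptor on hepatocytes. The labels name the variant FGF19ΔKLB without giving its sequence change, and its column headers carry the code F19_HBS. Dose, route, age and sex are not given in the sources used here, and nothing says that the libraries of a group come from separate animals. Every p-value therefore measures only the spread between these samples, which may be technical. The tissue was not sorted, so fewer cells of a type and less RNA per cell cannot be told apart.

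G1 is the phase in which a cell decides whether to copy its DNA. D-type cyclins bind CDK4 and CDK6 and start the phosphorylation of the retinoblastoma protein, which frees E2F factors, and E2F factors in turn raise the E-type cyclins that activate CDK2 at the entry into S phase. The CIP/KIP inhibitors p21 (Cdkn1a) and p27 (Cdkn1b) bind cyclin-CDK complexes, while the INK4 inhibitor p18 (Cdkn2c) binds CDK4 and CDK6 directly. Most hepatocytes of an adult liver are quiescent, and cyclin D1 is known for its induction when they re-enter the cycle after loss of liver mass.

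Promoter sequences are shown for the inhibitors Cdkn1a and Cdkn2c, since each carries a letter match to a regulator whose other target genes are described further on. RefSeq promoters on GRCm38.p6, which run from 250 bases before to 50 bases after a transcription start, were at hand for 5 of the 8 genes and number 8. The p53 pattern searched was CATG, 6 bases of any kind and CATG again. The E2F patterns were TTTCGCG or TTTGGCGC or TTTCCCGC or TTTGCCGC. Both strands were read. Capitals mark the match. The Cdkn1a stretch lies at chr17:29090829-29090978 on the plus strand and covers positions -150 to -1, counted from the first RefSeq start of the gene.
Cdkn1a: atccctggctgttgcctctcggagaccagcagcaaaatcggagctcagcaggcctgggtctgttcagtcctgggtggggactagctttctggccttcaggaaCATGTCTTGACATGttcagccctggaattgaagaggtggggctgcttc
The Cdkn2c stretch lies at chr4:109665473-109665622 on the minus strand and covers 150 bases from position -250 onward, counted from the second RefSeq start of the gene.
Cdkn2c: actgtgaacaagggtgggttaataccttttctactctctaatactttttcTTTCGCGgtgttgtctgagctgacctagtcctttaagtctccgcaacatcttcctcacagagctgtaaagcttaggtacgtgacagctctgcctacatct
The p53 match of Cdkn1a begins at position -48, and 0.71% of 32851 mouse promoters hold that pattern. The E2F match of Cdkn2c begins at position -200, and 2.76% of the same promoters hold at least 1 of the E2F patterns. None of the other promoters searched, Ccne1 included, held a match to either factor. A match is a run of letters and no measured binding.

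Counts summed to 65.1 to 73.3 M per library, and the 8 genes together took 5273 to 14274 of them. FGF19WT libraries 2 and 3 stood apart from the other 7 libraries. They lay at 129.76 and 169.91 on the first principal component, which held 48.9% of the variance, and the other 7 lay between -64 and -7.85. Both libraries were above the other 7 in 18.4% of the 18142 genes tested and below them in 19%, together 37.4%. Among the 8 genes, Ccnd1 and Cdkn2c were above and Cdkn1b was below. Markers of liver cell types moved with these libraries too. The summed level of 7 Kupffer cell markers was 31.3 and 11.2 CPM (counts scaled to the library size) in FGF19WT libraries 2 and 3 and 178 in FGF19WT library 1, against 164 to 255 CPM with vehicle. It was 160 to 189 CPM with FGF19ΔKLB. All 7 Kupffer and all 6 sinusoidal endothelial markers were below the other 7 libraries in both. No marker of any of these lists was at 0 in all libraries. The 9 hepatocyte markers, albumin among them, summed to 193230 to 285150 CPM with FGF19ΔKLB, 97180 to 192450 CPM with FGF19WT and 95374 to 156470 CPM with vehicle. Albumin supplied most of that sum, 211850 of 244800 CPM in FGF19ΔKLB library 1, and 5 of the 9 markers had positive changes for FGF19ΔKLB against vehicle. In FGF19WT libraries 2 and 3, 4 of the 9 were below the other 7 libraries. Among them the urea cycle genes Cps1, at 40.1 and 32.9 CPM, and Ass1, at 27.2 and 28.7 CPM, compare with at least 1155 and 897 CPM elsewhere. The part of these shifts in the results that follow was not tested, and the calls made in comparisons with FGF19WT, of the 8 genes and of the gene lists, are given also for fits without FGF19WT library 1 or without libraries 2 and 3.

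Ccnd1 encodes cyclin D1 and lies on chromosome 7 from 144929931 to 144939925 on the minus strand (GRCm38, as are all gene positions here). It stood at 16.3, 37.1 and 39.9 CPM in FGF19ΔKLB libraries 1 to 3, at 19.5, 49.6 and 109 CPM in FGF19WT libraries 1 to 3, and at 15.1, 25.6 and 17.9 CPM in vehicle libraries 1 to 3. FGF19WT library 3 was the highest of all 9 and library 2 came next, while FGF19WT library 1 lay among the vehicle libraries. The groups overlapped in each comparison. The highest library was 7.24-fold above the lowest. Reads of Ccnd1 cannot be told from those of the opposite-strand gene LTO1 where the 2 overlap, if strand was not used in counting, which is not stated. LTO1 had 299 to 602 counts against 1109 to 7530 for Ccnd1.

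Ccnd2 encodes cyclin D2, the D-type cyclin best known from lymphocytes, the ovary and pancreatic beta cells, and lies on chromosome 6 from 127125162 to 127152193 on the minus strand. It stood at 3.14, 3.17 and 1.95 CPM with FGF19ΔKLB, at 6.78, 2.15 and 1.19 CPM with FGF19WT, and at 6.02, 4.99 and 4.87 CPM with vehicle. All 3 FGF19ΔKLB libraries were below all 3 vehicle libraries, on the FPKM scale as well. FGF19WT was divided, with library 1 above and libraries 2 and 3 below every vehicle library. The order was thus the opposite of that of Ccnd1 within FGF19WT.

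Ccnd3 encodes cyclin D3 and lies on chromosome 17 from 47505051 to 47599689 on the plus strand. Its levels were 16.1, 19.4 and 25.0 CPM with FGF19ΔKLB, 7.88, 13.9 and 18.8 CPM with FGF19WT, and 18.3, 14.5 and 17.6 CPM with vehicle. FGF19WT library 1 was the lowest and FGF19ΔKLB library 3 the highest, and all groups overlapped. Ccnd3 overlaps Bysl on the opposite strand, which had 467 to 994 counts against 538 to 1526 for Ccnd3.

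Few counts lay behind the E-type cyclins. Ccne1, on chromosome 7 from 38097984 to 38107534 on the minus strand, encodes cyclin E1 and stood at 0.513, 1.002 and 1.92 CPM with FGF19ΔKLB. It stood at 0.88, 1.84 and 2.24 CPM with FGF19WT and at 0.601, 1.17 and 0.998 CPM with vehicle. FGF19WT libraries 2 and 3 were above the vehicle libraries, but FGF19ΔKLB library 3 reached the same height. Ccne2, on chromosome 4 from 11191351 to 11204779 on the plus strand, encodes cyclin E2. It stood at 1.53, 2.11 and 0.77 CPM with FGF19ΔKLB, at 1.93, 1.26 and 1.67 CPM with FGF19WT, and at 1.64, 1.29 and 1.32 CPM with vehicle. Both the lowest and the highest Ccne2 value were found with FGF19ΔKLB. Ccne2 rested on 47 to 141 counts per library and Ccne1 on 35 to 154, and Ccne2 overlaps Ints8, which had 518 to 933 counts, on the opposite strand.

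Cdkn1a encodes p21, a CDK inhibitor and classical p53 target, and lies on chromosome 17 from 29090976 to 29100727 on the plus strand. It varied most of the 8 genes, 8.26-fold from the lowest to the highest library. Its levels were 22.6, 10.8 and 41.7 CPM with FGF19ΔKLB, 6.53, 54.0 and 34.8 CPM with FGF19WT, and 28.7, 15.9 and 15.0 CPM with vehicle. FGF19WT held both the lowest and the highest library, and a coefficient of variation of 75.1% within that group, against 62.3% within FGF19ΔKLB and 38.6% within vehicle. The opposite-strand AC167363.2, which overlaps Cdkn1a, had 4 to 51 counts.

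Cdkn1b encodes p27, an inhibitor that keeps cells quiescent, and lies on chromosome 6 from 134920401 to 134925513 on the plus strand. It varied least, 2.19-fold over the 9 libraries. Its levels were 18.7, 19.9 and 21.7 CPM with FGF19ΔKLB, 20.4, 13.0 and 9.93 CPM with FGF19WT, and 17.3, 14.0 and 17.1 CPM with vehicle. All 3 FGF19ΔKLB libraries were above the vehicle libraries in CPM, while on the FPKM scale, at 3.54, 3.89 and 3.73 against 3.58, 2.79 and 3.70, the groups overlapped. Cdkn2c encodes p18 and lies on chromosome 4 from 109660876 to 109667189 on the minus strand. It stood at 18.8, 8.72 and 17.1 CPM with FGF19ΔKLB, at 13.3, 25.4 and 29.3 CPM with FGF19WT, and at 11.9, 12.7 and 16.5 CPM with vehicle. FGF19WT libraries 2 and 3 held the highest Cdkn2c levels of the 9, and FGF19WT library 1 lay within the vehicle range.

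**Figure D1:**
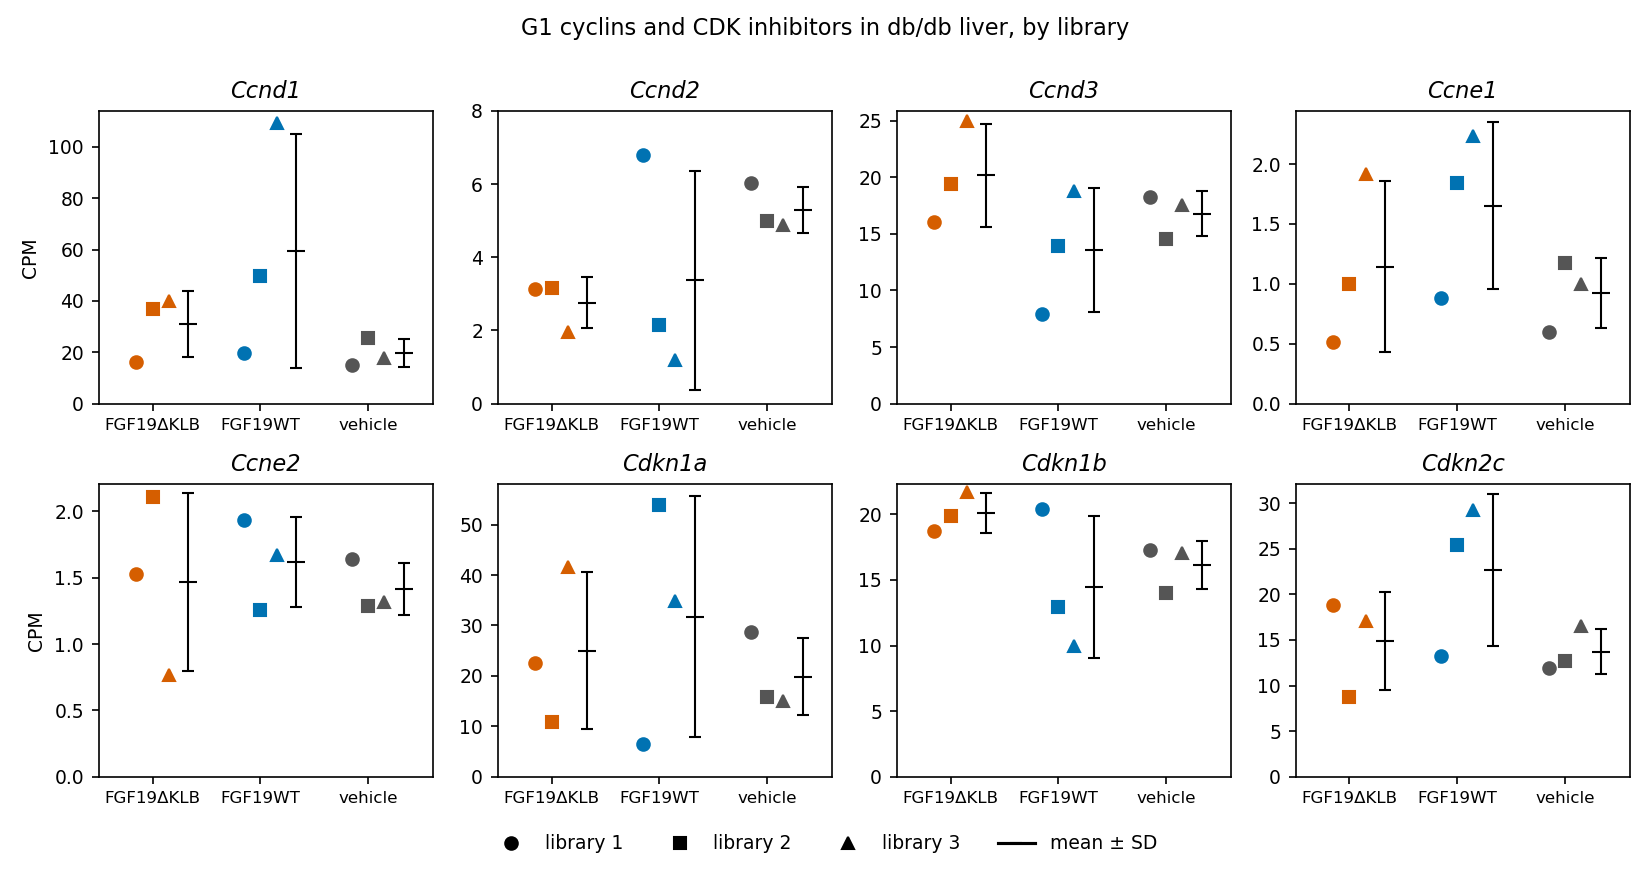
Level of each gene in CPM (linear axis from 0) by group, with a point per library (circle, square and triangle for libraries 1, 2 and 3) and the mean ± SD of 3 libraries beside them. Ccnd1 reached 49.6 and 109 CPM in FGF19WT libraries 2 and 3, and the Ccnd2 points of FGF19ΔKLB all lie below those of vehicle.

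Between genes, levels were compared in FPKM, which is set per length of transcript. In FGF19ΔKLB livers the order by mean FPKM was Cdkn1a, Ccnd1, Cdkn2c, Cdkn1b, Ccnd3, Ccne2, Ccne1 and Ccnd2, from 5.78 ± 3.25 for Cdkn1a to 0.25 ± 0.08 for Ccnd2 (SD, n = 3). The ranges of neighbours overlapped except between Cdkn1b and Ccnd3 and between Ccnd3 and Ccne2. In FGF19WT livers Ccnd1 came first with 12.3 ± 9.25 FPKM, then Cdkn1a, Cdkn2c, Cdkn1b, Ccnd3, Ccne1, Ccne2 and, with 0.33 ± 0.27, Ccnd2. There only Cdkn2c and Cdkn1b, and Cdkn1b and Ccnd3, were neighbours without overlap. In vehicle livers the order was Cdkn1a, Cdkn2c, Ccnd1, Cdkn1b, Ccnd3, Ccnd2, Ccne2 and Ccne1, from 5.27 ± 2.01 for Cdkn1a to 0.32 ± 0.10 for Ccne1. The first 4 overlapped each with the next, as did Ccne2 with Ccne1, and the other neighbours were apart. Ccnd2 was thus the lowest of the 8 genes by mean with either form of FGF19 and above both E-type cyclins with vehicle.

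Cyclin D1 made up most of the D-type cyclin transcripts in every library. Ccnd1 took 61.5, 75.6 and 73.5% of the summed D-type FPKM with FGF19ΔKLB, 72.1, 85.3 and 91.1% with FGF19WT, and 54.1, 71.4 and 60.2% with vehicle. The sum itself was 4.84, 9.25 and 9.004 FPKM with FGF19ΔKLB, 5.13, 12.9 and 24.2 FPKM with FGF19WT, and 5.57, 6.93 and 6.25 FPKM with vehicle. FGF19WT libraries 2 and 3 held the highest sums, and FGF19WT library 1 was below every vehicle library. The FPKM ratio of Ccnd1 to Ccnd2 was 10.4, 23.5 and 41.2 with FGF19ΔKLB, 5.77, 46.2 and 184 with FGF19WT, and 5.02, 10.3 and 7.36 with vehicle. In each FGF19ΔKLB library this ratio exceeded that of every vehicle library, by a narrow margin in library 1. The FPKM ratio of Cdkn1a to Cdkn1b was 1.55, 0.69 and 2.46 with FGF19ΔKLB, 0.41, 5.33 and 4.49 with FGF19WT, and 2.12, 1.45 and 1.13 with vehicle. FGF19WT thus held the only libraries with more than 4 times as much Cdkn1a as Cdkn1b and also the library with the least.

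**Figure D2:**
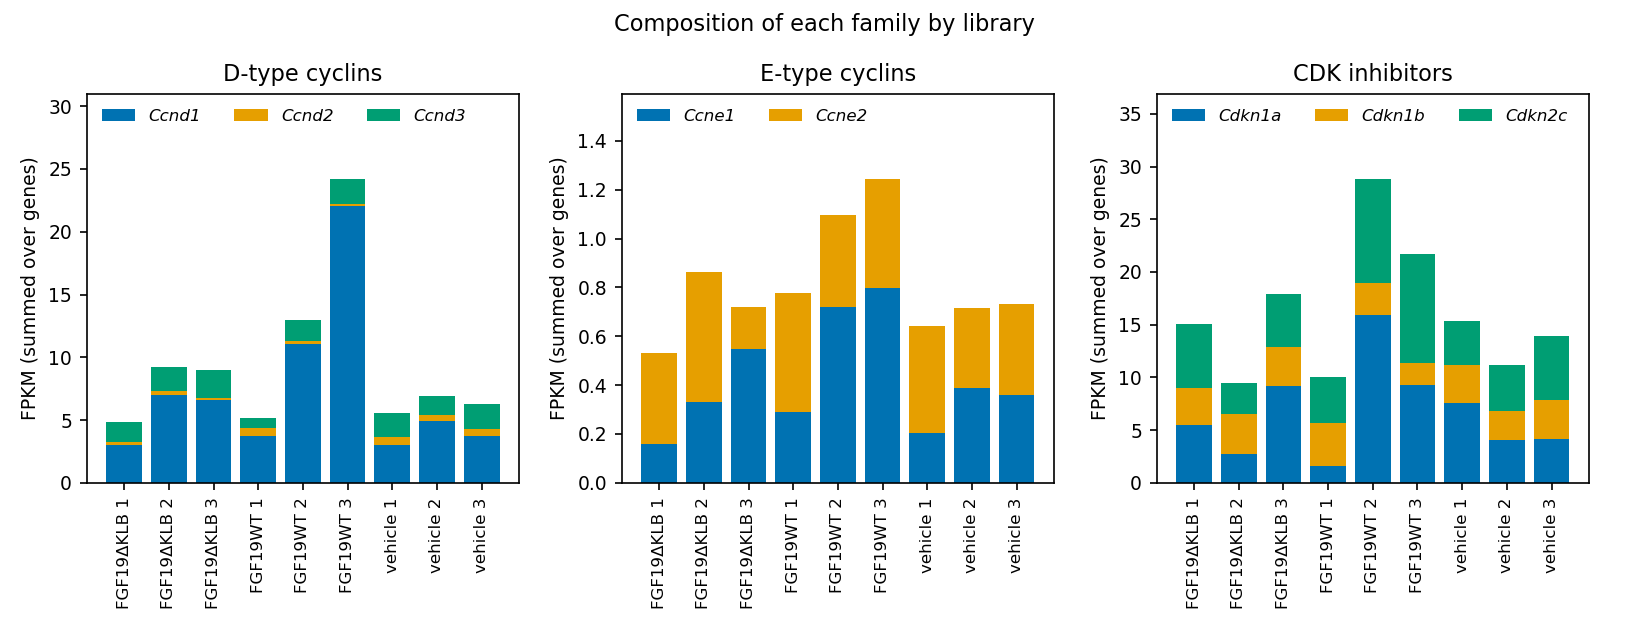
Stacked FPKM of the D-type cyclins, the E-type cyclins and the CDK inhibitors in each library (bars from 0, a colour per gene). The D-type sum reached 12.9 and 24.2 FPKM in FGF19WT libraries 2 and 3, most of it Ccnd1, and the 3 inhibitors summed to 28.8 and 21.7 FPKM there.

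Whether the variant differed from the unaltered form in these genes is the question of the comparison of FGF19ΔKLB with FGF19WT. Ccnd1 was lower with FGF19ΔKLB, at a mean of 31.1 ± 12.9 against 59.5 ± 45.7 CPM (SD, n = 3 each), a log2 fold change of -0.94 (SE 0.58, 95% interval -2.25 to 0.38, adjusted p = 0.533 in edgeR). Cdkn2c had -0.61 (SE 0.36, -1.42 to 0.20), Ccnd3 0.57 (SE 0.30, -0.12 to 1.26) and Cdkn1b 0.48 (SE 0.25, -0.09 to 1.04). None of the 8 was called at an adjusted p under 0.05 by edgeR over 9 libraries, which called 0% of all genes in this comparison. None reached an unadjusted p under 0.05, which 12.5% of all genes did, and DESeq2 called none of the 8 and 4.15% of genes. Over the 6 libraries of these groups edgeR and DESeq2 called none of the 8 either, and 0.00584% and 2.82% of all genes. Of the 8 changes 2 were positive, with a median of -0.32 where all genes had 0.01. The groups overlapped for all 8 genes, whereas 13.5% of all genes did not overlap, 7.15% higher and 6.39% lower with FGF19ΔKLB. Without FGF19WT library 1 edgeR called Cdkn1b higher with FGF19ΔKLB (log2 fold change 0.82, adjusted p = 0.0133), together with 3846 genes, 20.2% of those tested, and no other of the 8. The fit on these groups alone without it called Cdkn1b too (0.81, adjusted p = 0.0367 in edgeR), with 15.8% of all genes. Without FGF19WT libraries 2 and 3 the change of Cdkn1b was -0.03, and the remaining FGF19WT library was assumed to vary like the other groups.

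What the variant did on its own is addressed by FGF19ΔKLB against vehicle. Ccnd2 was lower in all 3 libraries, at 2.75 ± 0.70 against 5.30 ± 0.63 CPM (SD, n = 3 each), 0.52-fold by the means. Over 9 libraries its log2 fold change was -0.94 (SE 0.57, 95% interval -2.24 to 0.35, adjusted p = 0.730 in edgeR). Over the 6 libraries of these groups, a fit without the spread of FGF19WT, it was -0.95 (SE 0.25, -1.53 to -0.36, adjusted p = 0.114 in edgeR). DESeq2 on the same 6 libraries called it, at -0.96 with an adjusted p of 0.0141, the only call among the 8 genes there, while it called 7.65% of all genes. Cdkn1b was 1.25-fold higher by the means, with a log2 fold change of 0.32 over 9 libraries (SE 0.25, -0.25 to 0.88) and over 6 (SE 0.13, 0.01 to 0.62, adjusted p = 0.279 in edgeR). Ccnd1 had 0.67 (SE 0.58, -0.64 to 1.98), with 2 of 3 FGF19ΔKLB libraries above every vehicle library. The other 5 genes had changes between 0.05 and 0.34.

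EdgeR called 0 of the 8 in that comparison over 9 libraries, where it called 0.011% of all genes, and 0 over 6, where it called 1.68%. DESeq2 over 9 libraries called none of the 8 and 1.79% of all genes. An unadjusted p under 0.05 was reached by none over 9 libraries, against 8.35% of all genes, and by Ccnd2 and Cdkn1b over 6, against 17.3% of all genes. The groups did not overlap for these 2 of 8 genes, and for 24.6% of all genes, 12.4% higher and 12.2% lower. Summed markers of some cell types lay lower with FGF19ΔKLB, as Ccnd2 did, and those of some others overlapped between the groups. The 6 T and NK cell markers summed to 1.44 to 3.16 CPM with FGF19ΔKLB against 5.71 to 13.5 CPM with vehicle, and 5 of 6 had negative changes. The 6 B and plasma cell markers summed to 29.5 to 69.4 against 101 to 243 CPM, with 5 of 6 negative. The 6 sinusoidal endothelial markers summed to 53.5 to 85.6 against 100 to 115 CPM, with 6 of 6 negative, and 5 stellate cell markers to 70.4 to 166 against 200 to 239 CPM, with 3 of 5 negative. Among these markers the CD8 chain gene Cd8a fell in the 6-library fit, and none of the others was called. The Kupffer cell sum, at 160 to 189 against 164 to 255 CPM, and the cholangiocyte sum, at 26.2 to 59.2 against 49.4 to 63.4 CPM, overlapped between the groups. Of these markers 2 of 7 and 4 of 5 had positive changes, and Spp1 supplied most of the cholangiocyte sum. The neutrophil sum was 6.39 to 116 against 3.11 to 21.4 CPM, with 3 of 3 tested markers positive. The erythroid sum was 131 to 1122 against 227 to 329 CPM, with 3 of 4 positive, and both sums overlapped between the groups. In FGF19WT library 1 the T and NK sum was 4.38 CPM and the B and plasma sum 27.9 CPM, below every vehicle library. Ccnd2, at 6.78 CPM, was at its highest of the 9 libraries there. The part of these markers in the level of Ccnd2 was not tested.

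FGF19WT against vehicle addresses the effect of the unaltered form. Cyclin D1 was the gene furthest from vehicle, at 59.5 ± 45.7 against 19.5 ± 5.45 CPM (SD, n = 3 each), 3.04-fold by the means, with a log2 fold change of 1.61 (SE 0.59, 95% interval 0.27 to 2.94, unadjusted p = 0.0241, adjusted p = 0.199 in edgeR). Ccne1 had 0.84 (SE 0.56, -0.44 to 2.12), Cdkn2c 0.72 (SE 0.36, -0.09 to 1.54, adjusted p = 0.308) and Cdkn1a 0.68 (SE 0.71, -0.95 to 2.31). Ccnd2 had -0.65 (SE 0.57, -1.94 to 0.64), Ccnd3 -0.31 (SE 0.30) and Cdkn1b -0.16 (SE 0.25). Ccne2 had 0.19 (SE 0.41). EdgeR called none of the 8 over 9 libraries and 0.11% of all genes, and none over 6 libraries, where it called 0.00574%. DESeq2 called none of the 8 and 8.32% of all genes, with Ccnd1 at an adjusted p of 0.0641. Over 6 libraries DESeq2 called none of the 8 and 5.58% of all genes. An unadjusted p under 0.05 was reached by Ccnd1 alone, against 18.8% of all genes. No gene of the 8 had groups without overlap, against 22.6% of all genes, 11% higher and 11.6% lower.

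**Figure D3:**
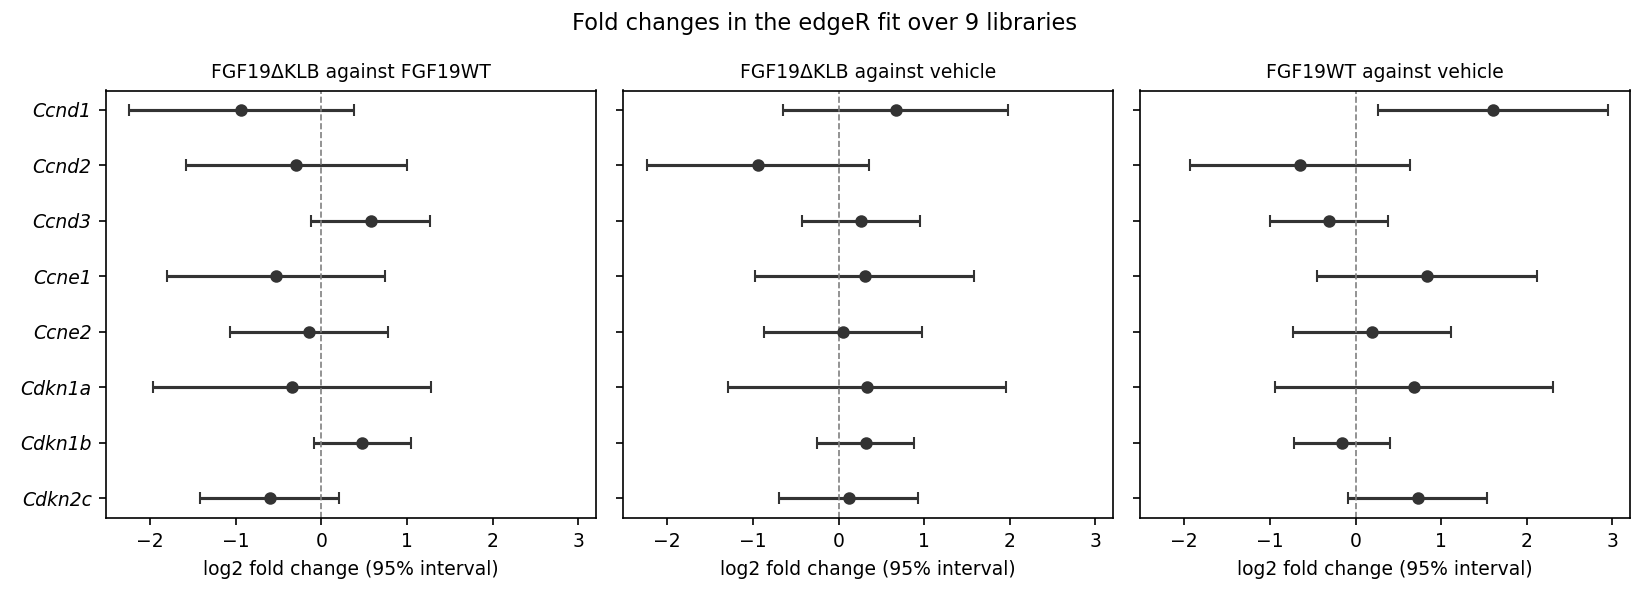
Log2 fold change of each gene (point) with its 95% interval in the edgeR fit over 9 libraries, for FGF19ΔKLB against FGF19WT, FGF19ΔKLB against vehicle and FGF19WT against vehicle. The dashed line marks no change, and of these 24 intervals the one that leaves it out is that of Ccnd1 for FGF19WT against vehicle, 0.27 to 2.94.

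These changes turned on which FGF19WT libraries entered. Without FGF19WT library 1, edgeR over the remaining 8 libraries called 3 of the 8 genes for FGF19WT against vehicle, and 27.4% of all genes. Ccnd1 rose by 2.01 (adjusted p = 0.0111), Cdkn2c rose by 0.99 (adjusted p = 0.0422) and Ccnd2 fell by 1.67 on the log2 scale (adjusted p = 0.0104). Within the libraries of these groups alone the same 3 were called, with adjusted p of 0.0134, 0.0153 and 0.0190 in edgeR and 25.5% of all genes. Without FGF19WT library 3 the change of Ccnd1 was 0.82 (adjusted p = 0.561). Without libraries 2 and 3 together it was 0.00 (-1.25 to 1.25), that of Cdkn2c -0.05 (-1.004 to 0.91) and that of Ccnd2 0.36 (-0.42 to 1.13), with the lone FGF19WT library assumed to vary like the other groups. Cdkn1a had -1.60 in that fit (-3.62 to 0.42) and Ccnd3 -1.09 (-1.73 to -0.44, adjusted p = 0.355). FGF19WT library 1 thus had neither the higher Ccnd1 and Cdkn2c nor the lower Ccnd2 of libraries 2 and 3.

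**Figure D4:**
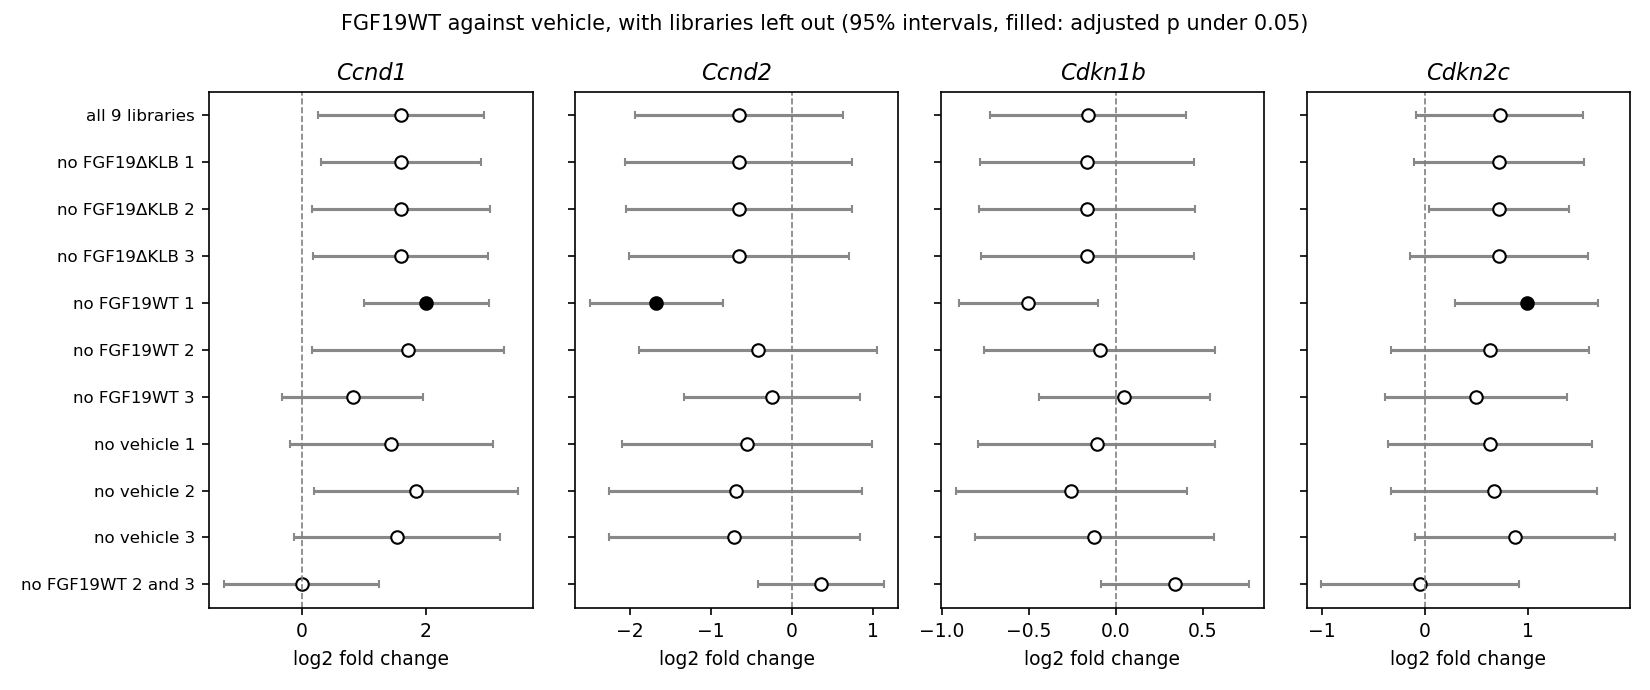
Log2 fold change of Ccnd1, Ccnd2, Cdkn1b and Cdkn2c for FGF19WT against vehicle (point) with its 95% interval in the edgeR fit over all 9 libraries and with libraries left out, from top to bottom. Filled points had an adjusted p under 0.05, which occurred for Ccnd1, Ccnd2 and Cdkn2c without FGF19WT library 1.

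None of the 8 G1 kinases and activators that work with these genes was called in any comparison over 9 libraries. Their median log2 change was -0.19 for FGF19ΔKLB against FGF19WT, -0.00 for FGF19ΔKLB against vehicle and 0.31 for FGF19WT against vehicle, where all genes had medians of 0.01, 0.00 and -0.00. Cdk4, the catalytic partner of D-type cyclins, stood at 42.3, 40.7 and 31.2 CPM with FGF19ΔKLB, 33.5, 41.1 and 41.6 with FGF19WT, and 30.3, 36.9 and 30.1 with vehicle. Cdk6, its close relative, had -0.52 for FGF19ΔKLB against FGF19WT (adjusted p = 0.318 in edgeR), with 31.5 to 37.7 against 41.9 to 56.6 CPM and no overlap. Cks1b, a small CDK subunit, had 1.17 for FGF19WT against vehicle (adjusted p = 0.191 in edgeR), and Cdc25a, a phosphatase that activates CDKs, had 0.90. Of the other CDK inhibitors, 3 of 4 were tested and none was called. Cdkn1c, which encodes p57, stood at 1.70, 1.96 and 2.01 CPM with FGF19ΔKLB, 4.48, 2.73 and 5.88 with FGF19WT, and 2.04, 2.80 and 2.67 with vehicle. All FGF19ΔKLB values of Cdkn1c were below those of both other groups (-1.20 against FGF19WT, adjusted p = 0.237 in edgeR). Cdkn2d, which encodes p19 of the INK4 family, had -0.60 for FGF19ΔKLB against FGF19WT, and Cdkn2b, which encodes p15, had 2.45 for FGF19WT against vehicle with 1.85 CPM in FGF19WT library 2 and 0 to 0.454 CPM in the others.

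Pocket proteins and E2F factors, 13 genes, and the 8 genes that degrade G1 cyclins and inhibitors held no call in any comparison over 9 libraries. For the pocket proteins and E2F factors the medians were -0.25, 0.02 and 0.12 for FGF19ΔKLB against FGF19WT, FGF19ΔKLB against vehicle and FGF19WT against vehicle. E2f8, a repressor of the family, stood at 1.01, 1.60 and 0.74 CPM with FGF19ΔKLB against 2.87, 3.09 and 3.26 CPM with vehicle, without overlap (-1.46, adjusted p = 0.500 in edgeR). E2f1, an activator, had -1.07 against either FGF19WT or vehicle. Rbl1, which encodes the pocket protein p107, had 0.83 and the activator E2f2 1.19 for FGF19WT against vehicle. In the degradation list the medians were -0.01, -0.08 and -0.13 in the same order. Ambra1, which directs D-type cyclins to a ubiquitin ligase, stood at 24.9, 25.4 and 23.8 CPM with FGF19ΔKLB, 28.6, 57.4 and 58.0 with FGF19WT, and 20.8, 25.3 and 24.4 with vehicle. Its change was -0.96 for FGF19ΔKLB against FGF19WT (adjusted p = 0.237 in edgeR) and 1.03 for FGF19WT against vehicle (adjusted p = 0.127 in edgeR). As for Ccnd1, FGF19WT libraries 2 and 3 held the highest values. Skp1a, a core subunit of the SCF ligases, had -0.31 for FGF19ΔKLB and -0.30 for FGF19WT against vehicle, and Skp2, which marks p27 for destruction, had -0.75 for FGF19ΔKLB against vehicle.

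Genes that act after the G1 decision were also set apart in FGF19WT libraries 2 and 3. All 10 mitosis and proliferation markers were above the other 7 libraries there, as were 7 of 14 E2F target genes of S phase. The 10 mitosis markers summed to 10.3, 20.8 and 27.0 CPM with FGF19ΔKLB, 13.7, 124 and 166 CPM with FGF19WT, and 5.98, 5.90 and 5.46 CPM with vehicle. The sums of all FGF19ΔKLB and FGF19WT libraries exceeded those of vehicle, but in FGF19ΔKLB library 1 Mki67 supplied 5.87 of the 10.3 CPM. In that library Top2a (0.499 CPM), Cdk1 (0.220), Ccnb1 (0.176) and Cdc20 (0.308) were below every vehicle library. Their median log2 change was -2.65 for FGF19ΔKLB against FGF19WT, 1.96 for FGF19ΔKLB against vehicle and 4.53 for FGF19WT against vehicle, and none of the 10 was called over 9 libraries. Mki67, which encodes the proliferation antigen Ki-67, was called in the 6-library fit of FGF19ΔKLB against vehicle, the only one of 9 markers tested there (2.54, adjusted p = 0.018 in edgeR). It stood at 5.87, 6.07 and 6.13 CPM with FGF19ΔKLB against 0.91, 1.48 and 0.70 CPM with vehicle. Ccna2, which encodes cyclin A2 of S phase, stood at 1.13, 2.03 and 3.26 CPM with FGF19ΔKLB, 2.01, 14.2 and 19.03 CPM with FGF19WT, and 1.15, 1.05 and 0.46 CPM with vehicle (3.72 for FGF19WT against vehicle, adjusted p = 0.125 in edgeR). The replication helicase subunit Mcm6 had 1.64 in that comparison. The S phase list as a whole had medians of -0.28, 0.23 and 0.56 in the order used above, with 0 of 14 genes called.

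The p53 list, tested because p53 raises Cdkn1a, held no call in any comparison over 9 libraries. Of its 15 genes, 8 had positive changes for FGF19ΔKLB against FGF19WT, 14 for FGF19ΔKLB against vehicle and 11 for FGF19WT against vehicle, with medians of 0.065, 0.38 and 0.28, where 49.6% to 50.9% of all genes were positive. Phlda3, a p53 target that restrains AKT, stood at 7.13, 3.27 and 17.3 CPM with FGF19ΔKLB, against 2.03, 2.36 and 3.17 CPM with vehicle, without overlap (1.87, adjusted p = 0.535 in edgeR). In FGF19ΔKLB libraries Phlda3 and Cdkn1a had the same order, with library 3 highest and library 2 lowest. They also shared an order with FGF19WT, where library 2 was highest and library 1 lowest, but with vehicle their orders were opposite. The part of p53 in the level of Cdkn1a was not tested. Bax, which encodes a pro-apoptotic protein, stood at 13.1, 15.3 and 23.8 CPM with FGF19ΔKLB, 13.4, 36.1 and 35.3 CPM with FGF19WT, and 10.9, 13.1 and 11.5 CPM with vehicle (1.25 for FGF19WT against vehicle, adjusted p = 0.147 in edgeR). Trp53, which encodes p53 itself, had -0.50 for FGF19ΔKLB against FGF19WT. The Wnt feedback and pericentral list was set beside Ccnd1, a gene described as a target of β-catenin in several tissues. All 8 of its genes were above the other 7 libraries in FGF19WT libraries 2 and 3, and none was called over 9 libraries. Their sum was 312, 272 and 426 CPM with FGF19ΔKLB, 244, 15773 and 13868 CPM with FGF19WT, and 1084, 732 and 607 CPM with vehicle. Nkd1, a Wnt feedback inhibitor, reached 326 and 379 CPM in FGF19WT libraries 2 and 3 and stood at 1.75 to 4.42 CPM in the other 7. Glul, the pericentral glutamine synthetase gene, supplied most of each sum, such as 255 of 312 CPM in FGF19ΔKLB library 1 and 999.96 of 1084 CPM in vehicle library 1.

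The gene lists turned on the FGF19WT libraries too, in fits chosen after the data were seen. Without FGF19WT library 1, edgeR called 9 of 10 mitosis markers and 8 of 8 Wnt genes lower for FGF19ΔKLB against FGF19WT, with medians of -3.13 and -4.56. It called all 10 and all 8 higher for FGF19WT against vehicle, with medians of 5.06 and 3.90. Among the S phase genes, Ccna2, Rrm2, Mcm5 and Mcm6 fell for FGF19ΔKLB against FGF19WT. For FGF19WT against vehicle these 4 and Tyms rose. Of the 15 p53 genes, Bax, Mdm2 and Trp53 fell for FGF19ΔKLB against FGF19WT, and the same 3 with Zmat3 and Sesn2 rose for FGF19WT against vehicle. The comparisons share the FGF19WT libraries. Ambra1 fell by 1.22 for FGF19ΔKLB against FGF19WT and rose by 1.29 for FGF19WT against vehicle (adjusted p = 0.000507 and 0.000343 in edgeR), the only call among the 8 degradation genes. Cdkn2d was called in both comparisons (-0.86 and 0.92), Cdkn1c for FGF19ΔKLB against FGF19WT (-1.17) and Cks1b for FGF19WT against vehicle (1.44). In the pocket protein and E2F list E2f8 fell for FGF19ΔKLB against FGF19WT (-1.23) and none was called for FGF19WT against vehicle. The shares of all genes called in these fits were the 20.2% and 27.4% given above. Without FGF19WT libraries 2 and 3, no gene of these lists was called in either comparison. The mitosis medians were then 0.49 for FGF19ΔKLB against FGF19WT and 1.51 for FGF19WT against vehicle, and the Wnt medians 0.09 and -0.575.

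**Figure D5:**
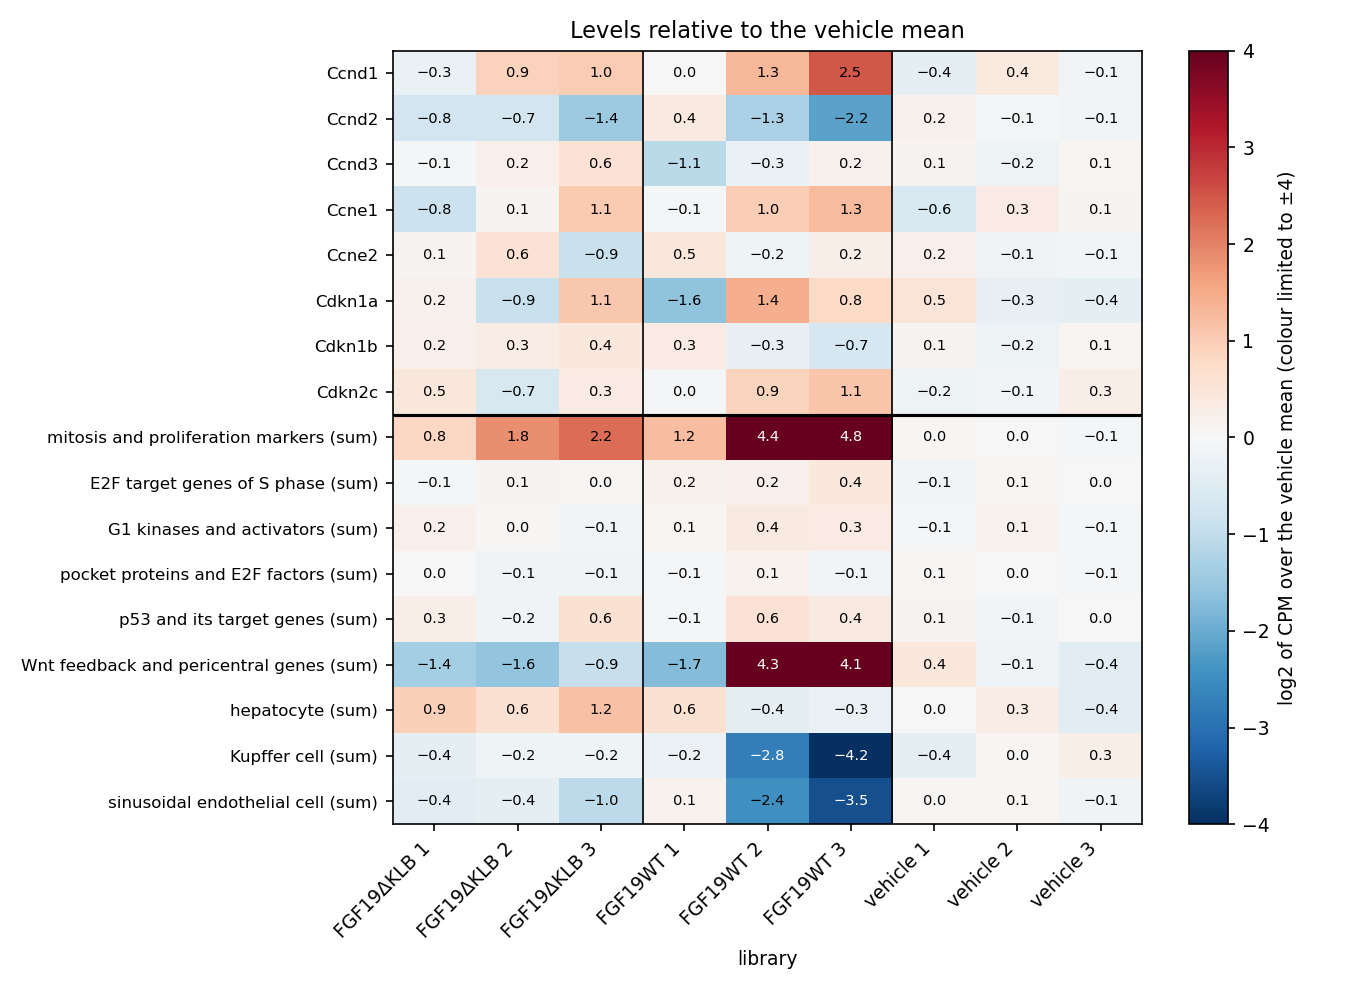
Level of each gene, and summed level of each gene list, in each library as log2 of CPM over the vehicle mean (colour, limited to ±4, with the value written in each cell). In FGF19WT libraries 2 and 3 Ccnd1, Ccne1, Cdkn1a and Cdkn2c are above the vehicle mean beside the mitosis list, while Ccnd2, Cdkn1b and the Kupffer and endothelial sums are below it.

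The genes whose profile over the 9 libraries lay nearest to each of the 8 were found among 11677 other genes with a mean of at least 1 CPM. Likeness was the root mean square difference of log2 CPM after each gene was centred on its own mean. Nearest to Ccnd1 came Atad2, an E2F-linked chromatin ATPase, at 0.28, where Ccnd1 itself had an SD of 0.88. Nearest to Ccnd2 came Elk3, an ETS factor, and the sulfotransferase gene Sult2a8, both at 0.22 beside an SD of 0.78. Nearest to Cdkn2c came Mark2, a kinase of cell polarity, at 0.155 beside an SD of 0.52, and nearest to Cdkn1b came Prr16 at 0.08 beside 0.35. The nearest neighbour of Cdkn1a lay further off, where Hist1h1c, a linker histone gene, came nearest at 0.43 beside an SD of 0.925. For Ccnd3, Ccne1 and Ccne2 the nearest were Ctla2a, Nek6 and Pusl1.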

How the data were processed

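Liver RNA of 9 samples was sequenced, from total RNA extracted with TRIzol, per the labels' protocols. The authors' table of the whole series holds expected counts and FPKM per gene. The deposited expected counts are whole numbers, and counts that are multiples of 4 were more frequent than neighbouring values, 1.41 to 1.48 times. The deposited FPKM values scale counts to transcript length and library total. Bowtie 0.12.2, HISAT2 2.0, StringTie 1.3.0 and mm8 are named in the submitters' processing notes, without their roles. All 28517 identifiers and starts in the table equal those of GENCODE M21 on GRCm38, and so do 25998 ends, so positions are given on that build.

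From the counts, CPM used TMM library sizes. The main test was edgeR 4.0.16 (quasi-likelihood, robust, filterByExpr, R 4.3.3) over all 9 libraries with group as the only term, and Benjamini-Hochberg adjustment over all 18142 genes tested. A gene was called at an adjusted p under 0.05. The alternatives were to test every gene or only those with 5 CPM in 3 libraries, DESeq2 1.42.0, limma 3.58.1 on log2(FPKM + 1) or log2(FPKM + 0.1) of genes with a mean FPKM of at least 1, counts divided by 4, fits on the 6 libraries of a comparison, a replicate block, and fits with libraries left out. The tests were also run on simulated data. Of each gene list, the genes called over 9 or 6 libraries were named, or, where none was, the 2 with the smallest p. The 8 genes and the lists were chosen with earlier results of these data known. Skp1 is listed as Skp1a in the table. Depth was 65.1 to 73.3 M counts per library, and intervals are 95% intervals of the fit. Some results are not reported here.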

Additional observations from a re-analysis of the deposited data

How the results depend on the processing

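Of 624 alternative values of the fold changes of the 8 genes, 579 kept direction and side of the threshold, 9 became called and 36 changed sign, in 16 of 24 results. The count of genes called depended on the tool and on the libraries used, and the cause was not tested. For FGF19ΔKLB against FGF19WT edgeR called 0 genes over 9 libraries and 1 over 6, DESeq2 829 and 568, limma with a pseudocount of 0.1 called 1, and 7 were called without FGF19WT libraries 2 and 3. For FGF19ΔKLB against vehicle, where the main count was 2, the counts were 11 with no filter, 13 at 5 CPM, 4 with counts divided by 4, 292 over 6 libraries, 303 without FGF19WT libraries 2 and 3, 328 and 1259 with DESeq2 over 9 and 6, and 27 and 40 with limma at 0.1 and 1. For FGF19WT against vehicle, where the main count was 20, they were 1 over 6 libraries, 1615 and 1071 with DESeq2, and 43 and 52 with limma. DESeq2 had 1070 higher and 545 lower there, edgeR 5 higher and 15 lower.

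Leaving out each library in turn gave 0 to 3846 genes (6 libraries: 0 to 2843), 0 to 172 (44, 70, 84, 95, 98 and 276) and 0 to 5221 (0 to 4697) in the same order, and called 0 to 1, 0 and 0 to 3 of the 8 genes. The highest counts came without FGF19WT library 1, except over the 6 libraries of FGF19ΔKLB and vehicle. DESeq2 over 6 libraries called 1 of the 8 for FGF19ΔKLB against vehicle.

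Without FGF19WT libraries 2 and 3, log2 changes against vehicle turned to 0.36 for Ccnd2, -0.0695 for Ccne1, -1.60 for Cdkn1a, 0.34 for Cdkn1b and -0.0465 for Cdkn2c. Those of FGF19ΔKLB against FGF19WT turned to 0.66 for Ccnd1, 0.37 for Ccne1, 1.93 for Cdkn1a, -0.0284 for Cdkn1b and 0.16 for Cdkn2c. With libraries left out singly from the 9, changes of FGF19ΔKLB against FGF19WT ran from -0.70 to 0.73 for Ccnd2, -0.49 to 0.17 for Ccne2 and -0.92 to 0.28 for Cdkn1a. Those of FGF19ΔKLB against vehicle ran from -0.28 to 0.66 for Ccne1, -0.30 to 0.36 for Ccne2, -0.25 to 0.70 for Cdkn1a and -0.0877 to 0.39 for Cdkn2c, and that of FGF19WT against vehicle from -0.50 to 0.0511 for Cdkn1b. Left out of the 6, the sign also turned for FGF19ΔKLB against FGF19WT in Ccnd2 (0.72), Ccne2 (0.0041 and 0.15) and Cdkn1a (0.27 and 0.0195), for FGF19ΔKLB against vehicle in Ccne1 (-0.29), Ccne2 (-0.30 and -0.0101), Cdkn1a (-0.25) and Cdkn2c (-0.0893), and for FGF19WT against vehicle in Cdkn1b (0.0543). Limma gave Cdkn2c -0.11 and -0.0822 for FGF19ΔKLB against vehicle, with all-gene medians of -0.12 and -0.10 at pseudocounts of 0.1 and 1.

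Libraries of equal number did not deviate together in every pair (correlations -0.048 to 0.147), so the numbers were not taken to pair them. With the replicate block edgeR called 0, 0 and 1 genes over 9 libraries and 0, 103 and 0 over 6, in the order used above, and none of the 8. Over 6 libraries the block turned Ccnd2 to 0.0543 for FGF19ΔKLB against FGF19WT and Ccne2 to -0.0522 for FGF19ΔKLB against vehicle. The lowest counts per library were 35 for Ccne1, 47 for Ccne2 and 82 for Ccnd2.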
